A study of Oryza sativa with 18 samples.

Results

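DNA methylation was compared between coleoptiles grown for 4 d without oxygen and embryos of the dry seed in rice. The regions described are all 5908 regions of the deposited table that the authors made for the dry seed against embryos at 24 h, out of 8941 regions in the 3 deposited tables. The lists of high and low libraries that the authors gave per region name dry seed and 24 h libraries and no 4 d nitrogen library. The dry seed libraries were part of the authors' choice, so the fall itself is described here and the counts are not independent evidence that a fall exists.

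Each group had 3 libraries. For the 4 d nitrogen group, wild-type seeds of Oryza sativa cultivar Amaroo were de-hulled, surface sterilised and kept for 4 d in the dark at 30 °C in a MES and CaSO4 medium through which nitrogen gas was bubbled, and whole coleoptiles were frozen. For the dry seed group, embryos were dissected from de-hulled seeds of the same cultivar at 0 h, before any growth in medium. Other groups used below were embryos after 24 h in nitrogen (24 h nitrogen), coleoptiles after 4 d in medium bubbled with air, without their primary leaf (4 d air), and coleoptiles after 3 d in nitrogen and 1 d in air (re-aerated). Embryos after 24 h in air (24 h air) were the last group, and entered the spread that all 6 groups shared in the model below. The 2 groups compared differ in organ, age and oxygen together, and the parts of these in a difference cannot be told apart. The tables hold methylation only, so no marker of embryo or coleoptile could be checked. The labels do not say whether the libraries of a group came from separate cultures, so the p-values cover the variation among these libraries, part or all of which may be technical.

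The coleoptile is the sheath that covers the first leaf of a grass seedling, and in rice it is the organ that lengthens when a seed germinates under water without oxygen, mainly by expansion of its cells. Plant cytosines are methylated in CG, CHG and CHH sequence contexts by enzymes of the MET, CMT and DRM families, and small RNAs direct part of this. Methyl groups are lost when DNA is copied without maintenance, or are removed by DNA glycosylases. In Arabidopsis and soybean, methylation in the CHH context rises in the maturing embryo and is lost after germination.

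The level of a region is the percent of its reads that were methylated, as deposited, and differences are in percentage points (4 d nitrogen minus dry seed). A library entered a region where it had 10 or more reads there. The libraries of 4 d nitrogen held 908058 to 1008683 reads over the regions, with medians of 120 to 133 reads per region, and those of the dry seed held 1839145 to 2150760 reads, with medians of 244 to 287. The column names do not settle whether a read was counted per molecule or per cytosine. In the 13 regions of 3 to 4 bp, 58.6% of the 232 totals over the 18 libraries were multiples of 3. This share was 39.96% in the 149 regions of 5 to 9 bp with 3 sites and 33.3% in regions of 100 bp or more. Read numbers here may therefore exceed the number of molecules. Libraries of the dry seed were less alike than those of 4 d nitrogen. Between libraries of a group, region levels correlated with Pearson's r of 0.868 to 0.876 in 4 d nitrogen and of 0.636 to 0.667 in the dry seed, over 5761 regions. The median SD within a region was 4.71 points in 4 d nitrogen and 6.68 points in the dry seed. A bulk level cannot tell fewer methylated cells from less methylation per cell.

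Methylation was lower in the 4 d nitrogen coleoptile over nearly the whole table. Over the 5761 regions with enough reads in all 6 libraries, the mean level was 29.1%, 30.2% and 29.0% in the libraries of 4 d nitrogen and 69.9%, 66.6% and 67.8% in those of the dry seed. The groups were far from overlapping, and the libraries of the dry seed lay further apart than those of 4 d nitrogen. The mean was 29.4% ± 0.641 in 4 d nitrogen and 68.1% ± 1.67 in the dry seed (SD, n = 3 each), a difference of -38.7 points. The exact two-sided permutation test gave p = 0.1, which is the smallest p that 3 libraries against 3 allow.

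**Figure D1:**
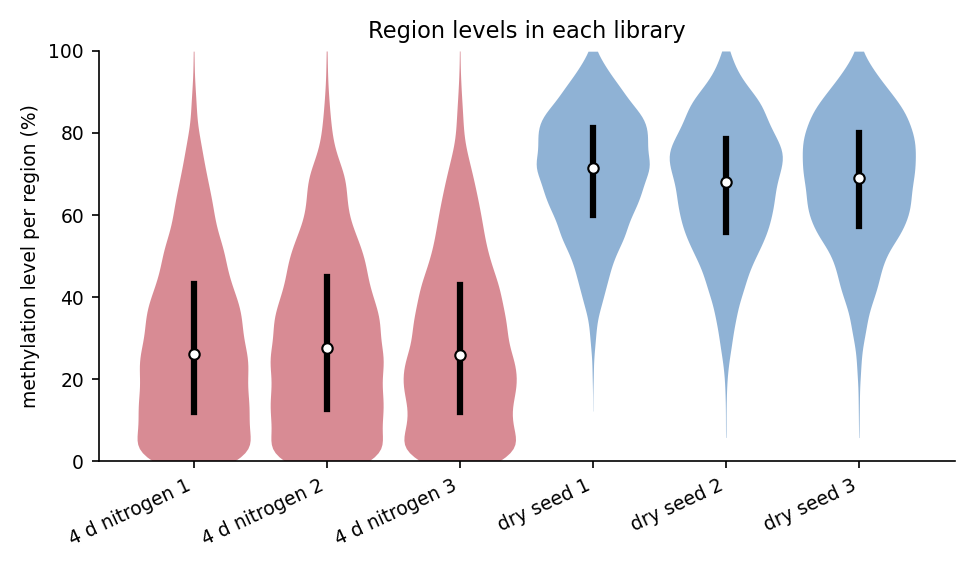
Methylation level per region (%) in each of the 6 libraries, 3 of 4 d nitrogen (left, red) and 3 of the dry seed (right, blue), over the 5761 regions with 10 or more reads in all 6. The width shows the density of regions, the white dot the median and the bar the interquartile range; the medians lie between 25.9% and 27.7% in 4 d nitrogen and between 68.1% and 71.3% in the dry seed.

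The 2 groups differed in the shape of the distribution as well as in its centre. In the dry seed the middle of the regions lay between 58.5% and 78.6% (interquartile range of region means), with no region mean under 10%. In 4 d nitrogen the same range ran between 12.9% and 43.2%. Region means under 5% were found for 616 regions in 4 d nitrogen and for 0 in the dry seed. Means of 80% or more were found for 43 regions in 4 d nitrogen and 1251 in the dry seed. Low levels were thus common in the coleoptile, and levels near full methylation were rare. This was not particular to the coleoptile. Embryos after 24 h in nitrogen had an interquartile range of 13.9% to 42.2%, with 515 means under 5% and 40 of 80% or more. The dry seed libraries were part of the authors' choice of regions, so the lack of low levels there may follow from that choice.

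Single regions fell by very different amounts. The difference had a median of -37.7 points, and the middle 50% of the regions lay between -49.3 and -26.7 and 90% between -67.4 and -13.7. A fall of 60 points or more was seen in 600 regions, of 40 to 60 in 1967, of 20 to 40 in 2467, of 10 to 20 in 586 and of under 10 in 136, while 5 regions had a higher mean in 4 d nitrogen. Expressed as the share of the dry seed level that was left, the median was 41.1%, with an interquartile range of 21.5% to 59.97%. Under 10% was left in 704 regions, and 80% or more was left in 361.

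**Figure D2:**
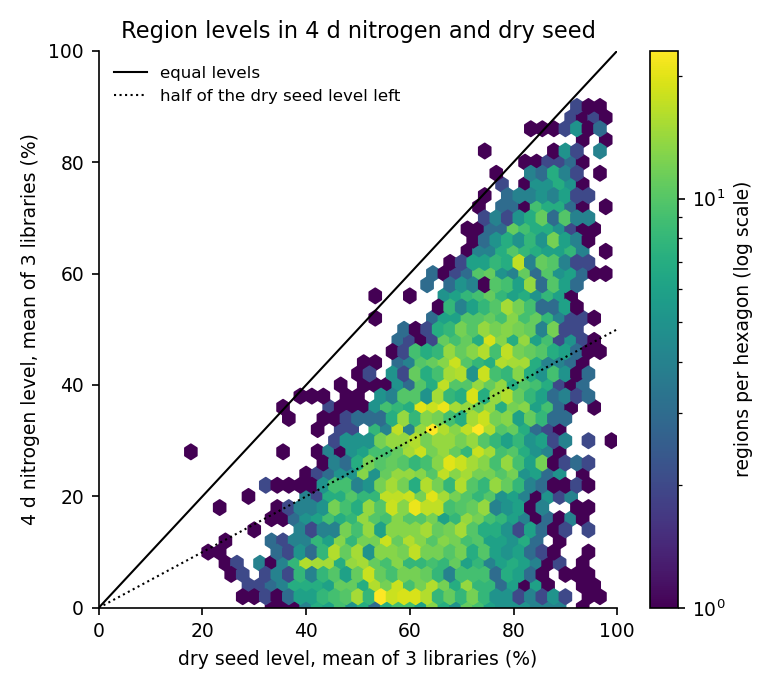
Level of each of 5761 regions in 4 d nitrogen (vertical axis, %) against the dry seed (horizontal axis, %), each the mean of 3 libraries, as a hexagon plot with the number of regions per hexagon on a log colour scale. The solid line marks equal levels and the dotted line marks 50% of the dry seed level; nearly all regions lie below the solid line, and 3585 have less than 50% left.

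A quasi-binomial logistic model was fitted per region, with a call at a Benjamini-Hochberg adjusted p under 0.05 and a difference of group means of 10 points or more. It called 5643 of 5873 tested regions lower in 4 d nitrogen (96.1% called) and 0 higher (0.0% called); 5702 regions had an unadjusted p under 0.05. The limma fit on the levels also called 0 higher. All 3 libraries of 4 d nitrogen lay below all 3 of the dry seed in 5428 of the 5761 regions (94.2%) and above them in 1 (0.0174%). Of the 230 tested regions that were not called, 52 passed the adjusted p but differed by under 10 points, 89 differed by 10 points or more but missed the adjusted p, and 89 did neither. These 230 regions stood at 63.0% ± 0.601 in 4 d nitrogen and 73.2% ± 0.598 in the dry seed (SD, n = 3, over the 222 with reads in all 6 libraries), both above the table's means.

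Over the whole table, the size of the fall in points changed little with the level from which a region started. Regions under 50% in the dry seed stood at 11.96% ± 0.524 in 4 d nitrogen and 43.4% ± 2.37 in the dry seed, a difference of -31.4 points over 638 regions. The 984 regions at 50 to 60% stood at 17.997% ± 0.464 in 4 d nitrogen and 55.5% ± 2.33 in the dry seed, a difference of -37.5 points. Values were 25.6% ± 0.584 and 65.2% ± 1.86 for the 1397 regions at 60 to 70% (4 d nitrogen, then dry seed), a difference of -39.6 points. The SD of these differences lay between 1.95 and 2.43 points, less than the step from the lowest bin to the others.

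Above a starting level of 70% the fall in points did not widen further. The 1491 regions at 70 to 80% stood at 33.8% ± 0.731 in 4 d nitrogen and 74.9% ± 1.51 in the dry seed, a difference of -41.1 points. The 1045 regions at 80 to 90% stood at 44.99% ± 0.742 in 4 d nitrogen and 84.3% ± 0.968 in the dry seed, a difference of -39.3 points. The 206 regions at 90% or more stood at 53.8% ± 1.53 in 4 d nitrogen and 92.6% ± 0.144 in the dry seed, a difference of -38.8 points. A nearly equal number of points came off very different levels. The share left therefore climbed bin by bin, with 27.6%, 32.4%, 39.2%, 45.1%, 53.4% and 58.1% of the dry seed mean left, low to high starting level. The share of tested regions called lower was 96.2%, 98.4%, 97.3%, 95.8%, 94.2% and 88.8% in the same order, against 96.1% over the table.

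A fall and a starting level that come from the same libraries share their error, since a library that reads high by chance gives both a high start and a large fall. The regions were therefore also binned by 1 dry seed library, with the fall taken from the other 2. The difference then lay between -38.8 and -35.0 points for regions under 50% and between -38.7 and -36.1 for regions at 90% or more, over the 3 choices of the binning library. The smaller fall of the low starting bin was largely gone, but the bins also held other starting levels. In the other 2 libraries, the lowest bin averaged 48.5%, 53.2% and 52.2% with library 1, 2 or 3 for binning. The highest bin averaged 84.4%, 86.2% and 85.1%. By the mean of all libraries these bins stood at 43.4% and 92.6%. Less shared error and a narrower range of starting levels cannot be told apart here. As a single measure, the difference in regions at 80% or more minus that in regions under 60% was -4.09 points by the mean of all dry seed libraries, a larger fall in the high regions. It was -1.98 points with dry seed library 1 as the binning library, but 2.16 and 0.734 points with library 2 and library 3. With levels weighted by reads it was 0.301 points, so the sign of this measure is not settled. The share left kept its order in the split libraries, between 27.1% and 27.8% in the lowest bin and between 54.1% and 58.1% in the highest.

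**Figure D3:**
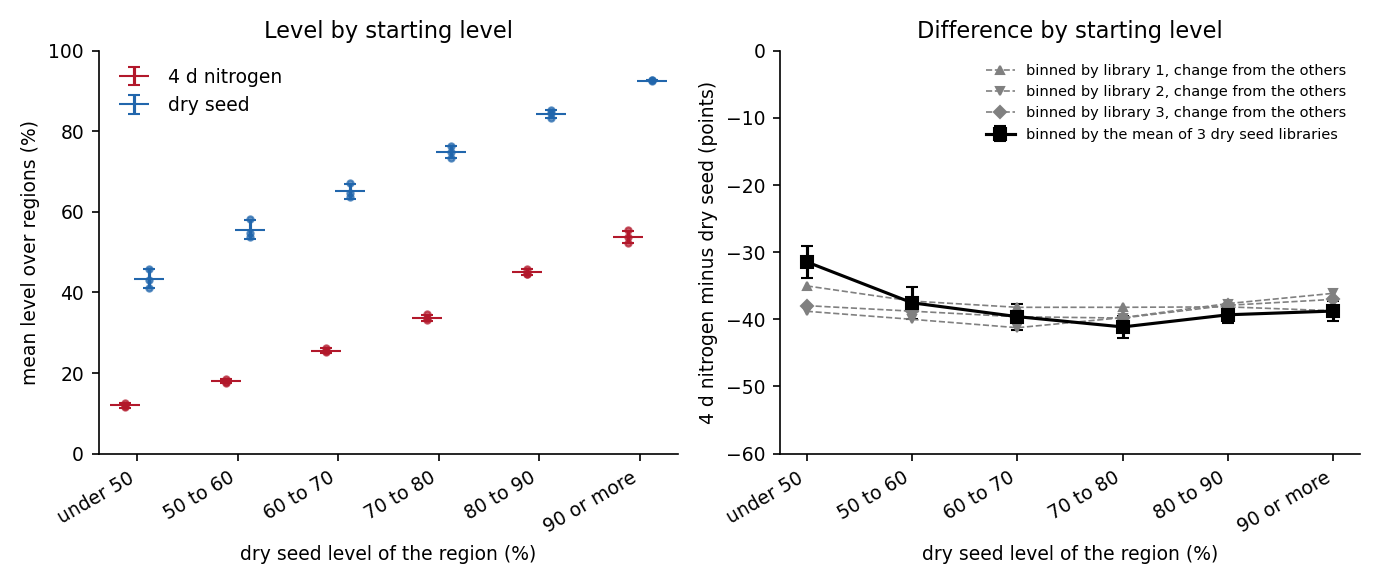
Left, mean level (%) in 4 d nitrogen (red) and dry seed (blue) for regions binned by dry seed level, with a point per library and the mean with SD (n = 3). Right, difference of the group means (4 d nitrogen minus dry seed, points) by the same bins from all dry seed libraries (black, with SD) and with 1 dry seed library used for binning and the others for the fall (grey); all lie between -41.2 and -31.4 points.

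The deepest region of each starting bin shows how much single regions departed from these means. The deepest region under 50%, chr11:7181880-7182006 (127 bp, 3 differentially methylated sites in the authors' count), had 34.8%, 34.8% and 36.3% in 4 d nitrogen and 35.5%, 35.1% and 35.4% in the dry seed, on 4186 to 4729 reads. Its groups overlapped, with a difference of -0.00402 points and an adjusted p of 0.992 in the quasi-binomial model. The deepest region at 50 to 60%, chr7:29697399-29697606 (208 bp, 58 sites), had 23.5%, 22.1% and 20.3% in 4 d nitrogen and 59.95%, 54.5% and 60.2% in the dry seed, on 956 to 1581 reads. The groups did not overlap there, and the difference of -36.3 points had an adjusted p of 3.98e-07 in the same model.

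The deepest regions of the next 2 starting bins were the outermost of the table on their side of the chromosome. The region chr8:1111-1347 (237 bp, 79 sites) had 22.8%, 24.98% and 21.9% in 4 d nitrogen and 61.7%, 64.6% and 57.9% in the dry seed, on 3868 to 5337 reads. The region chr4:35502391-35502674 (284 bp, 86 sites) had 22.7%, 26.6% and 21.9% in 4 d nitrogen and 71.8%, 71.0% and 73.7% in the dry seed, on 3049 to 5211 reads. The quasi-binomial model gave them adjusted p-values of 1.59e-08 and 8.15e-09 for differences of -38.2 and -48.5 points. Both fell to nearly the same level, although they started more than 10 points apart. The deepest region at 90% or more behaved otherwise. The region chr8:24557033-24557189 (157 bp, 3 sites) had 86.4%, 87.9% and 84.3% in 4 d nitrogen and 92.6%, 91.8% and 93.5% in the dry seed, on 849 to 1891 reads. Its groups did not overlap and its adjusted p was 0.000113 in the quasi-binomial model, but the difference of -6.45 points was under the 10 points needed for a call.

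The regions were short, between 3 and 393 bp with a median of 58 bp, and length alone told little about the fall. The 692 regions under 20 bp stood at 28.4% ± 0.517 in 4 d nitrogen and 65.0% ± 1.74 in the dry seed, a difference of -36.6 points. The 1661 regions of 20 to 49 bp differed by -38.7 points, the 2421 of 50 to 99 bp by -38.8 and the 918 of 100 bp to under 200 bp by -39.7. The 69 regions of 200 bp or more stood at 26.4% ± 0.724 in 4 d nitrogen and 68.4% ± 1.33 in the dry seed, a difference of -42.0 points. From shortest to longest bin, 93.5%, 96.0%, 96.3%, 97.7% and 97.1% of the tested regions were called lower, against 96.1% over the table.

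Regions of 100 bp or more were more methylated than regions under 50 bp in both groups. They were higher by 4.01 ± 0.122 points in 4 d nitrogen and by 5.81 ± 0.200 points in the dry seed (SD, n = 3 each). The difference between the groups was thus -1.81 points, a larger fall in the long regions. The exact two-sided permutation test gave p = 0.1, the smallest possible, and 0.133 after Benjamini-Hochberg adjustment over the 4 contrasts of length, end, spacing and sites. With levels weighted by reads this was -0.386 points (exact permutation p = 0.2), and with regions of 200 bp or more as the long class it was -3.94 points.

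The longest regions covered a wide range of falls. The longest, chr5:17879262-17879654 (393 bp, 49 sites), had 28.5%, 31.0% and 30.1% in 4 d nitrogen and 60.03%, 48.2% and 65.0% in the dry seed. The next, chr3:36413398-36413769 (372 bp, 90 sites), had 29.7%, 25.4% and 27.6% in 4 d nitrogen and 82.8%, 81.3% and 76.6% in the dry seed, and it was also the deepest region of the 80 to 90% starting bin. The third in length, chr11:27508403-27508766 (364 bp, 47 sites), had 15.4%, 13.9% and 14.1% in 4 d nitrogen and 62.2%, 62.7% and 62.6% in the dry seed. The groups were apart in each, by -27.9, -52.7 and -48.0 points, with adjusted p-values of 8.03e-06, 2.20e-08 and 5.76e-08 in the quasi-binomial model.

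Among short and middle lengths, the deepest region of each bin fell by less than the table's median of -37.7 points. The deepest region under 20 bp, chr3:4343388-4343405 (18 bp, 3 sites), had 50.8%, 40.8% and 46.8% in 4 d nitrogen and 61.5%, 62.9% and 58.3% in the dry seed, a called difference of -14.7 points (quasi-binomial adjusted p = 0.00479). The deepest of 20 to 49 bp, chr7:25391883-25391920 (38 bp, 3 sites), had 60.7%, 65.9% and 67.4% in 4 d nitrogen and 72.7%, 73.7% and 73.5% in the dry seed. The groups did not overlap, and the difference of -8.62 points was too small for a call. The deepest of 50 to 99 bp, chr1:16913267-16913344 (78 bp, 4 sites), had 38.4%, 39.1% and 37.3% in 4 d nitrogen and 38.5%, 39.5% and 38.2% in the dry seed, on 2961 to 3293 reads. Its groups overlapped, with a difference of -0.491 points. Of the 20 regions with the most reads over the 6 libraries, 3 differed by under 5 points. At the wider limit of 10 points, 136 of the 5761 regions of the table fell by less.

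The number of differentially methylated sites separated the regions far more than length did. This number is the authors', in a table made for the dry seed against 24 h, and its column names no library. If it was counted on those libraries, a larger number goes with a larger fall by 24 h through the count itself. Region levels in 24 h nitrogen and 4 d nitrogen correlated with Pearson's r of 0.942, so the fall to 4 d may share in this, which was not tested. The 2307 regions with 3 to 5 sites stood at 35.1% ± 0.636 in 4 d nitrogen and 66.5% ± 1.22 in the dry seed, a difference of -31.5 points. The 1351 regions with 6 to 9 sites differed by -38.2 points and the 1507 with 10 to 19 sites by -44.5. The 596 regions with 20 or more sites stood at 19.8% ± 0.928 in 4 d nitrogen and 72.5% ± 2.41 in the dry seed, a difference of -52.7 points. The groups of sites differed in the coleoptile more than in the seed. Regions with 10 or more sites minus those with 3 to 5 came to -12.1 ± 0.211 points in 4 d nitrogen and 3.21 ± 0.973 points in the dry seed (SD, n = 3 each), a difference of -15.3 points (exact two-sided permutation p = 0.1, the smallest possible, 0.133 after Benjamini-Hochberg adjustment). Nothing is read from this p-value, since the number of sites may itself reflect the fall.

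Sites and length went with the fall in opposite directions when the other was held. Within regions of 50 to 99 bp, the difference was -26.1 points at 3 to 5 sites, -35.6 at 6 to 9, -44.8 at 10 to 19 and -54.2 at 20 or more. The dry seed level of these 4 classes lay between 66.6% and 72.9%, whereas the 4 d nitrogen level was 43.98%, 31.0%, 22.5% and 18.7% in the same order. Within regions of 3 to 5 sites, the difference was -35.8 points under 20 bp, -33.4 at 20 to 49 bp, -26.1 at 50 to 99 bp and -20.5 at 100 bp to under 200 bp. The fall was thus largest with many sites and smallest in long regions with few. Long regions also held more sites, with a median of 3 sites under 20 bp and 31 at 200 bp or more.

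**Figure D4:**
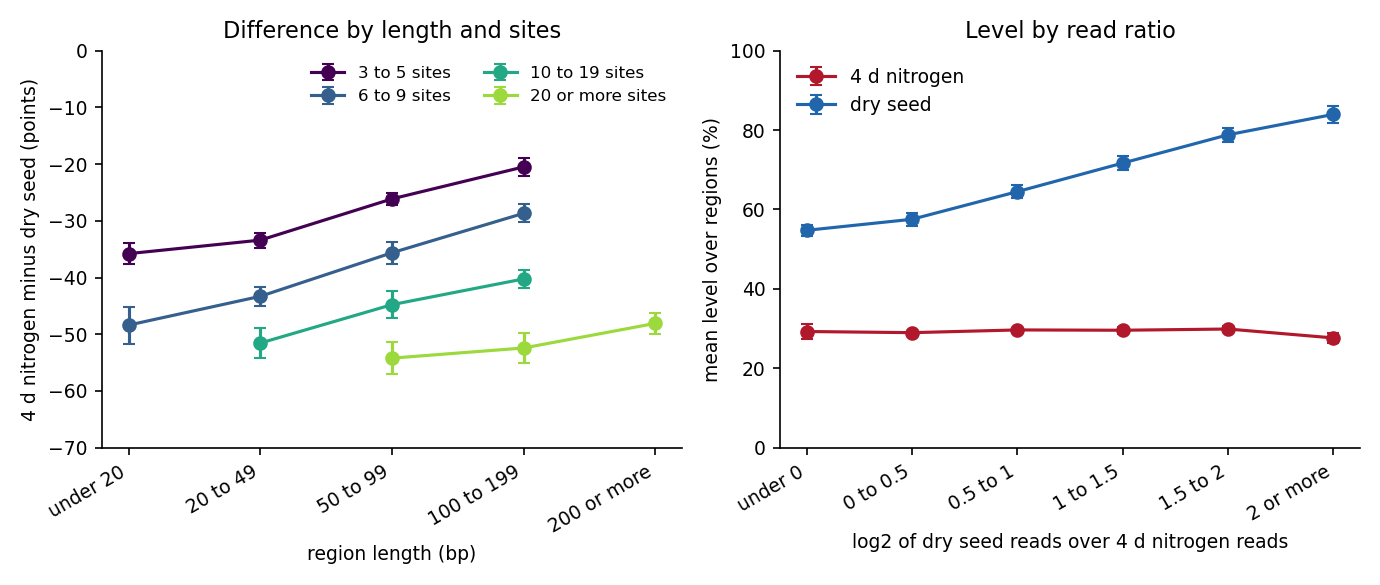
Left, difference of the group means (4 d nitrogen minus dry seed, points, with SD) by region length, 1 line per number of sites; the differences lie between -54.2 and -20.5 points, and within a length the fall is larger with more sites. Right, mean level (%, with SD, n = 3) in 4 d nitrogen (red) and dry seed (blue) by the log2 ratio of dry seed reads to 4 d nitrogen reads of a region; the red line stays between 27.6% and 29.9%, the blue line lies between 54.8% and 84.0%.

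Read numbers moved with the fall. A region had a median of 1.91 times as many reads in the dry seed as in 4 d nitrogen. Where the log2 ratio of dry seed to 4 d nitrogen reads was 0 to 0.5, the 993 regions stood at 29.0% ± 0.286 in 4 d nitrogen and 57.5% ± 1.61 in the dry seed. Where it was 2 or more, the 345 regions stood at 27.6% ± 1.23 in 4 d nitrogen and 84.0% ± 2.06 in the dry seed. The differences were -28.6 and -56.3 points, with 93.5% and 97.8% of the tested regions called lower, against 96.1% over the table. The ratio went with the dry seed level (Pearson's r = 0.571 over 5761 regions) and hardly with the 4 d nitrogen level (r = -0.00608). These correlations are across regions that share the same 6 libraries, and the reads enter both measures. Within the 80 to 90% starting bin, the difference was -17.4 points at a log2 ratio of 0 to 0.5 and -57.8 points at 2 or more. At a fixed read ratio under 2, the fall was smaller in the highest starting bins. At a log2 ratio of 0.5 to 1, the difference was -33.8 points for regions under 50%, -37.9 at 50 to 60%, -38.04 at 60 to 70%, -33.8 at 70 to 80%, -24.9 at 80 to 90% and -14.4 at 90% or more, the last over 24 regions. At a log2 ratio of 2 or more it was -54.2 points at 70 to 80%, -57.8 at 80 to 90% and -55.2 at 90% or more, with no such step.

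The surplus of reads in the dry seed was one of methylated reads. Methylated reads over all regions numbered 300665 to 344078 per library in 4 d nitrogen and 1306665 to 1571645 in the dry seed, 4.29-fold more in the dry seed by the group means. Unmethylated reads numbered 607393 to 676749 in 4 d nitrogen and 527172 to 579115 in the dry seed, 1.16-fold more in 4 d nitrogen. The depth of the libraries outside these regions is not in the tables, so read numbers cannot be scaled to it. Restricting the table to the regions with a log2 ratio under 0.5 left a mean difference of -28.5 points (exact permutation p = 0.1), with 959 of 1030 tested regions called lower (93.1%, against 96.1% over the table). The part of read recovery in the fall was not tested.

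Read ratio and site number went with the fall, and length and position hardly did, but these are not like quantities. Bins of the read ratio took up 22.4% of the variance of the difference between regions, after adjustment for the number of bins, and bins of the site number took up 18.9%. Starting level took up 2.88%, and windows of 1 Mb took up 2.46%. Length took up 0.243%, chromosome 0.239% and distance from the chromosome end 0.133%. Each share was computed with that property alone, and properties that go together count the same variance again. The reads of the ratio are also the totals behind the levels, and the site number may reflect the fall itself. Starting level shares the dry seed libraries with the fall. Length went with the site number (Spearman's r = 0.640 across regions), so it may share that tie. Position has no such tie, so the shares do not rank the properties.

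By position, the fall covered all 12 chromosomes at nearly equal size. Chromosome 11 stood at 27.6% ± 0.795 in 4 d nitrogen and 68.2% ± 2.33 in the dry seed, a difference of -40.6 points, which was the largest of the 12. Chromosome 1 stood at 30.1% ± 0.638 in 4 d nitrogen and 67.4% ± 1.53 in the dry seed, a difference of -37.3 points, the smallest. They were 3.25 points apart, and the SD of a chromosome's difference averaged 1.84 points. Each chromosome was also compared with all others within a library, which removes the library's own level. For 8 of them the 4 d nitrogen libraries were clear of the dry seed libraries in this measure (exact two-sided permutation p = 0.1, adjusted p = 0.150 over 12), namely smaller falls on chromosomes 1, 2, 3 and 4 and larger falls on chromosomes 7, 10, 11 and 12. None passes 0.05, which 3 libraries against 3 cannot reach. In 4 d nitrogen the chromosomes lay between 27.6% and 30.9%, and in the dry seed between 67.4% and 69.2%.

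**Figure D5:**
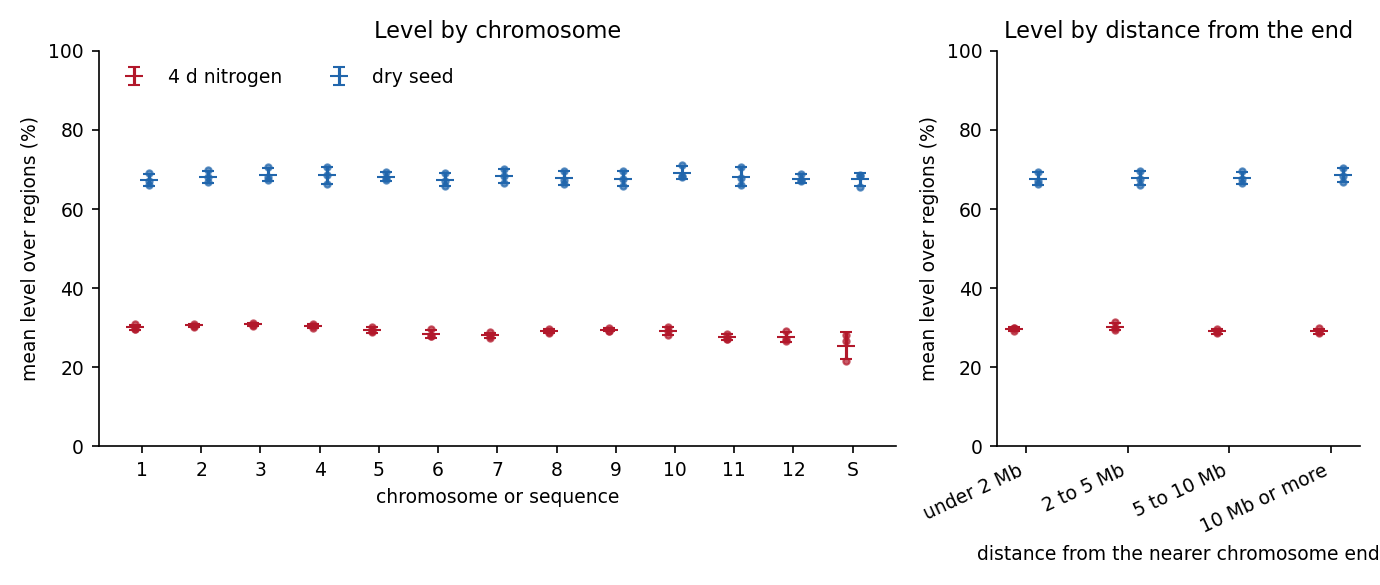
Left, mean level (%) per chromosome in 4 d nitrogen (red) and dry seed (blue), with a point per library and the mean with SD (n = 3); S is a sequence that the table names only by that letter, with 7 regions. Right, the same by distance from the nearer chromosome end; every chromosome and distance shows the 2 groups apart, with 4 d nitrogen between 25.5% and 30.9% and dry seed between 67.4% and 69.2%.

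Distance from a chromosome end made little difference. Ends were taken as position 1 and the highest coordinate in the deposited tables, since no source used here names the genome build. For the same reason no gene was assigned to a region, and positions are those of the authors' table. Regions within 2 Mb of an end stood at 29.7% ± 0.491 in 4 d nitrogen and 67.6% ± 1.63 in the dry seed, a difference of -38.0 points over 680 regions. The 1971 regions at 10 Mb or more stood at 29.2% ± 0.648 in 4 d nitrogen and 68.6% ± 1.77 in the dry seed, a difference of -39.4 points. The level within 2 Mb minus that elsewhere was 0.278 ± 0.505 points in 4 d nitrogen and -0.505 ± 0.223 points in the dry seed, a difference of 0.783 points (exact two-sided permutation p = 0.1, 0.133 after Benjamini-Hochberg adjustment). Among regions that started at 60 to 80% this difference was 0.0577 points, with an exact permutation p of 0.9.

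Along the chromosomes, the regions lay at 9.71 per Mb on chromosome 12 and up to 18.4 per Mb on chromosome 11. Of the 376 windows of 1 Mb with any region that had enough reads in all 6 libraries, 306 held 10 or more such regions, and all 306 had a lower mean in 4 d nitrogen. Their differences had a median of -38.5 points, with 90% of them between -46.0 and -31.1. The deepest fall was in the window from 9000001 to 10000000 of chromosome 7, with 21.6% in 4 d nitrogen and 71.1% in the dry seed over 11 regions. The shallowest was in the window from 4000001 to 5000000 of chromosome 3, with 42.8% in 4 d nitrogen and 67.0% in the dry seed over 19 regions. The windows with the most regions on each chromosome, 13 in all because 2 tied on chromosome 7, held 24 to 35 regions and differed by -44.8 to -30.8 points. Neighbouring regions did not closely share their fall. In 276 pairs within 1 kb of each other, the differences had a Pearson's r of 0.154 across pairs and a median gap of 13.8 points. Regions with a neighbour within 1 kb minus those without came to -1.22 ± 0.470 points in 4 d nitrogen and -0.643 ± 0.311 points in the dry seed, a difference of -0.578 points (exact two-sided permutation p = 0.3).

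A few regions lay in the outermost 10 kb at the low-numbered ends. These 8 regions on 6 chromosomes were chosen after values of the table were seen. They stood at 22.5% ± 1.73 in 4 d nitrogen and 72.3% ± 2.44 in the dry seed (SD, n = 3), and each was called lower, a share close to the 96.1% of the table. Region means lay between 18.3% and 26.1% in 4 d nitrogen and between 61.4% and 92.8% in the dry seed. The coleoptile levels were thus closer together than the seed levels. Without the highest, the seed means lay between 61.4% and 79.1%. The same 8 regions lay between 21.0% and 26.4% in embryos after 24 h in nitrogen, so close levels were not particular to the coleoptile. One of them, chr5:305-341 (37 bp, 7 sites), had 23.5%, 23.5% and 17.6% in 4 d nitrogen on 17, 51 and 17 reads, and 96.3%, 90.4% and 91.6% in the dry seed on 697 reads in each library. Its totals were multiples of 17 in all 18 libraries, so its read numbers may not be numbers of molecules. Of the 20 deepest regions of the table, 7 started in the first 10 kb or were the outermost region of their chromosome in the tables. Over the table, 8 of 5908 regions started in the first 10 kb, a narrower class than that of the 7. The 20 had 7763 to 27689 reads over the 6 libraries, so the deepest regions need not stand for their bins.

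The sequence named S held 7 regions, with 25.5% ± 3.46 in 4 d nitrogen and 67.5% ± 1.67 in the dry seed, and 6 of them were called lower, against 96.1% over the table. The sources used here do not say what S is. Without these regions the mean difference of the table was -38.7 points, as with them.

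Among the 5761 regions with enough reads in all 6 libraries, the 5 largest falls emptied regions that were almost fully methylated in the seed. A further 5 regions, with too few reads in some library, had differences of -99.8 to -89.8 points and are not ranked. The 5 ranked regions were 30 to 39 bp long and had 3 to 8 sites. The largest of the ranked falls, chr4:18045597-18045627, had 8.32%, 0% and 0% in 4 d nitrogen on 12, 11 and 16 reads, and 99.8%, 90.002% and 99.8% in the dry seed on 171, 61 and 93 reads. The difference was -93.7 points (quasi-binomial adjusted p = 0.000712), and 0 methylated reads allow levels of up to 27.3% and 18.8% (3 reads of the total) if each read is its own molecule, and higher levels if not. In chr12:5059581-5059615, all 3 libraries of 4 d nitrogen were at 0% on 30, 34 and 21 reads, which allows up to 10%, 8.82% and 14.3% on the same condition. The dry seed libraries had 96.3%, 90.2% and 90.9% there, and the adjusted p in the same model was 5.16e-05.

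The other largest falls had the same form. The region chr10:14568016-14568045 had 2.70%, 9.98% and 0% in 4 d nitrogen and 97.8%, 97.2% and 93.9% in the dry seed. The region chr6:6665185-6665216 had 0%, 5.25% and 0% in 4 d nitrogen and 96.5%, 93.7% and 90.5% in the dry seed. The region chr7:20446047-20446085 had 3.70%, 6.05% and 2.85% in 4 d nitrogen and 96.1%, 87.9% and 96.2% in the dry seed. No library of either group came near the other group. All 5 had 2.07 or more as the log2 ratio of dry seed to 4 d nitrogen reads, well above the table's median of 0.931. In coleoptiles after re-aeration their group means lay between 75.8% and 92.9%. The 206 regions at 90% or more in the dry seed averaged 84.4% there, so such levels were not particular to these 5.

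The 5 regions with a higher mean in 4 d nitrogen were the only ones among the 5761, and none was called. The largest difference was in chr9:22628729-22628745 (17 bp), with 22.2%, 26.98% and 36.5% in 4 d nitrogen and 14.3%, 31.8% and 7.56% in the dry seed. Its groups overlapped, and the difference of 10.7 points had an adjusted p of 0.436 in the quasi-binomial model. In chr1:30467621-30467715 (95 bp) the levels were 79.6%, 84.5% and 83.9% in 4 d nitrogen and 77.5%, 76.3% and 67.2% in the dry seed, on 203 to 359 reads. Here the groups did not overlap, and the adjusted p was 0.00432, but the difference of 8.97 points was under 10. It was the 1 region that did not overlap in the higher direction.

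In 2 of the others, a low value of dry seed library 1 decided the sign. The region chr3:13459003-13459192 had 80.6%, 76.5% and 79.8% in 4 d nitrogen and 60.5%, 84.6% and 85.8% in the dry seed. Its difference was 1.99 points with all libraries and -6.25 points without dry seed library 1. The region chr3:4890198-4890292 had 86.3%, 79.1% and 92.7% in 4 d nitrogen and 65.3%, 93.7% and 94.2% in the dry seed, with a difference of 1.62 points, and of -7.94 points without dry seed library 1 and -1.70 without nitrogen library 3. In chr3:9148203-9148212 (10 bp) the levels were 59.9%, 53.4% and 51.2% in 4 d nitrogen and 56.3%, 59.3% and 44.5% in the dry seed, with overlapping groups and a difference of 1.49 points. Without nitrogen library 1 or dry seed library 3 it was -1.03 and -2.93 points.

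Regions that kept 80% or more of their seed level were 361 in number. They stood at 68.3% ± 0.0937 in 4 d nitrogen and 79.0% ± 0.228 in the dry seed. They had a median of 4 sites and a median length of 69 bp, against 7 sites and 58 bp over the table, and a median log2 read ratio of 0.693 against 0.931. The 600 regions with a fall of 60 points or more stood at 8.07% ± 0.135 in 4 d nitrogen and 76.7% ± 1.99 in the dry seed, with a median of 13 sites, a length of 67 bp and a log2 ratio of 1.59. Seed levels of the 2 sets were near each other, and the coleoptile levels lay far apart because the sets were chosen so.

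Around the threshold of 10 points, chr3:4325042-4325204 was just inside with 77.1% ± 3.72 in 4 d nitrogen and 87.1% ± 1.52 in the dry seed, and chr12:25740637-25740742 and chr11:20547072-20547093 followed with differences of -10.1 points each. None of these 3 calls held with every library left out in turn. The difference then lay between -11.9 and -8.15 points in chr3:4325042-4325204, between -12.8 and -7.54 in chr12:25740637-25740742 and between -16.3 and -5.62 in chr11:20547072-20547093. With the spread of the 6 libraries only, the adjusted p-values in the quasi-binomial model were 0.0142, 0.0673 and 0.162 in the same order. Just outside were chr3:6432826-6432847 with 86.7% ± 11.5 in 4 d nitrogen and 96.7% ± 3.10 in the dry seed, chr3:29338297-29338344 with -9.84 points and chr3:32132232-32132311 with -9.78. At the read minimum, 19 values with 9 reads were left out, with a median level of 22.2%, and 27 values with 10 reads were kept, with a median of 9.98%. In all, 187 values in the 6 libraries had fewer than 10 reads. The 35 regions that could not be tested were 3 to 36 bp long with a median of 15 bp, and stood at 84.5% ± 1.56 in the dry seed. They had a median of 8.33 reads in 4 d nitrogen and 56.0 in the dry seed, so what was left out was short, highly methylated in the seed and thinly covered in the coleoptile.

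Mean levels like those of the coleoptile were already measured in the embryo after 24 h in nitrogen. Over 5708 regions with enough reads, the mean level was 29.5% ± 0.627 in 4 d nitrogen and 29.5% ± 0.198 in 24 h nitrogen (SD, n = 3 each), a difference of 0.0392 points with an exact permutation p of 1. The median region differed by -0.235 points, and 88.4% of 5758 regions were within 10 points. The quasi-binomial model called 1 of 5866 regions higher in 4 d nitrogen (0.017% called) and 0 lower (0.0% called), with 220 at an unadjusted p under 0.05 and 1 lower by limma. The 1 region, chr1:30467621-30467715, is the one named above with a higher level than in the seed. It had 82.7% ± 2.64 in 4 d nitrogen and 57.4% ± 1.36 in 24 h nitrogen, an increase of 25.3 points with an adjusted p of 0.00831. In 4 d air it stood at 46.1% ± 3.26 and after re-aeration at 84.3% ± 1.45. Its call was lost without nitrogen 4 d library 2 or 3 or nitrogen 24 h library 2, and when the spread came from these 6 libraries only.

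Coleoptiles grown in nitrogen had more methylation in these regions than those grown in air. Over 5659 regions the mean level was 29.5% ± 0.673 in 4 d nitrogen and 23.4% ± 0.408 in 4 d air, a difference of 6.09 points (exact permutation p = 0.1, the smallest possible). Per region, 112 of 5847 were called higher in 4 d nitrogen (1.92% called) and 1 lower (0.0171% called) by the quasi-binomial model. Because the changes from the dry seed to the 2 coleoptiles share the dry seed libraries, this direct comparison is the test of where they differ. The 112 regions stood at 57.3% ± 0.162 in 4 d nitrogen, 36.0% ± 0.563 in 4 d air and 76.8% ± 0.764 in the dry seed, and 95 of them (84.8%, against 96.1% over the table) were also called lower in 4 d nitrogen than in the dry seed. The set was chosen for high levels in 4 d nitrogen, so nothing is read from this share. The count of 112 was 0 when the spread came from these 6 libraries only. The 1 region in the other direction, chr8:9212552-9212577, had 6.11% and 4.99% in 4 d nitrogen, where library 2 had too few reads, and 31.4% ± 3.87 in 4 d air. Its adjusted p was 0.0360, with 81.4% ± 5.97 in the dry seed. With any 1 of the 6 libraries left out, the count of 112 lay between 25 and 69 and the 1 lower call was lost.

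Few regions of the table coincided with the authors' regions for oxygen, and many with those for re-aeration. An overlap of 1 bp or more with the table of 4 d air against 4 d nitrogen was found for 19 regions, 0.322% of these regions and 0.892% of that table. They stood at 59.6% ± 0.792 in 4 d nitrogen and 75.2% ± 1.08 in the dry seed. An overlap with the table of re-aerated against 4 d nitrogen coleoptiles was found for 732 regions, 12.4% of these regions and 81.2% of that table. These 732 stood at 20.2% ± 0.677 in 4 d nitrogen and 68.7% ± 1.64 in the dry seed, with a median difference of -48.0 points, against -35.9 points in the regions that did not overlap. That table was chosen by the authors on the 4 d nitrogen libraries, so the larger fall there is a description.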

How the data were processed

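MethylC-seq libraries, a bisulfite sequencing method, used 600 ng of DNA each and a lambda DNA spike of 0.5%, per the labels' protocols. The authors deposited, per region and library, a total read count, a methylated read value and a percent, per the file headers. The deposited methylated values were treated as estimated counts, since each is a whole number (to within 0.01) times a library factor (0.9977 to 0.9983), and they were rounded. The deposited percent was used as the level, and entries under 10 reads were left out. Column names carry CG while the names of the region sets carry CNN, so the cytosine context is not settled. No source used here gives the aligner, caller, filters or genome build.

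A quasi-binomial model (numpy 2.4.6) with a term per group used all 6 groups of the table, which shared a region's spread, with dispersion kept at 1 or above and no covariate. At least 2 libraries per group were needed, and p-values were adjusted by Benjamini-Hochberg over all regions tested. It was also run on simulated counts with a narrower range of starting levels and with smaller and rarer falls than in these data. That run therefore cannot show how the model performs here. Exact two-sided permutation tests were used for library means and contrasts. Alternatives were other read minimums, read weighting, limma 3.58.1, other thresholds, a replicate block and leaving out each library. Intervals and limits cover counting error only. The regions, bins and lists were chosen with earlier results of these data known, and 3 alternatives were added after seeing the data. Named regions were the 5 largest and 5 smallest falls, the deepest of each starting level and length bin, the 3 longest, the 3 on each side of the 10 point threshold and any called higher, with exceptions stated. The main tests did not pair libraries by replicate number.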

Additional observations from a re-analysis of the deposited data

Results flagged for a closer look

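The change from the dry seed to the 4 d coleoptile differed between growth in nitrogen and growth in air in 112 regions with more methylation in nitrogen and in 1 region with less. These were found by testing 4 d nitrogen against 4 d air directly in the quasi-binomial model, since the dry seed libraries are shared. The levels of both sets are given above. With any 1 of the 6 libraries left out the 112 became 25 to 69 and the 1 was lost, and when the spread came from these libraries only both counts were 0.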

How the results depend on the processing

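The mean fall kept its direction under all 14 alternatives, between -42.9 points (medians of region levels) and -28.5 (log2 read ratio under 0.5). The count of lower regions was 5412 to 5585 with 1 library left out, 5173 when the spread came from the compared libraries only, 5119 at 20 points and 959 of 1030 in the low read ratio regions, and 1 region was higher with no minimum difference (0 to 1 with 1 library left out). Replicate numbers were shared between groups, and deviations of same-numbered libraries correlated with r between -0.0343 and -0.0138. No pairing was seen in this measure, but it cannot tell whether same-numbered libraries shared a culture or a day. With a replicate block the model called 5632 lower, and the mean fall had a paired exact permutation p of 0.25, the smallest possible for 3 pairs. Against 24 h nitrogen, the count of higher regions was 0 when the spread came from the compared libraries only and 0 to 1 with 1 library left out, and limma called 1 lower. Against 4 d air, the 112 higher regions became 0 with that spread, 235 with limma, 49 at 20 points, and 25 to 69 with 1 library left out. The 1 lower region became 0 with the replicate block, with that spread and with any 1 library left out, and 2 with limma. The contrast of high and low starting levels was -4.09 points, -6.55 to -4.15 with 1 library left out, 0.301 with read weighting, and -1.98, 2.16 and 0.734 with dry seed library 1, 2 or 3 used for binning. The causes of these changes were not tested. Single regions changed sign with 1 library left out, with ranges of -0.493 to 0.2498 points in chr11:7181880-7182006 (0.231, 0.0787 and 0.0221 in between), -2.93 to 4.45 in chr3:9148203-9148212 (-1.03 in between), -7.94 to 6.53 in chr3:4890198-4890292 (-1.70 in between) and -6.25 to 6.43 in chr3:13459003-13459192. Other results kept their direction. Depth limits single regions most where 4 d nitrogen had few reads, and reads may not be separate molecules.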
